A study of Mus musculus with 9 samples.

Results

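Transcripts of 10 genes of the NF-kappaB pathway were followed in plasma cells of the mouse spleen: the subunit genes Nfkb1, Rel, Nfkb2 and Relb, and the regulators and feedback targets Nfkbia, Nfkbie, Bcl3, Tnfaip3, Traf1 and Birc3. They were taken by symbol from a table of 46958 genes, and all 10 passed the filter on low counts together with 14189 others. The cells were isolated with beads against CD138, a plasma cell surface protein, from mice that had not been immunized. Each of the 9 libraries held the isolated cells of 1 spleen, with 3 mice per genotype, all 3 months of age and of a mixed C57/BL6x129/SVxBALB/c background. The genotypes were WT, DH-LMP2A and kFRA (LCDD). DH-LMP2A names an allele with LMP2A, an Epstein-Barr virus membrane protein that imitates the signal of the B cell receptor. kFRA stands for a free light chain of the kind that forms deposits in the disease LCDD, and the series asks how toxic such a chain is to the plasma cells that make it. The labels state that the isolated fraction was not pure. The labels give the genotypes by name only and do not say whether the kFRA mice also carried the DH-LMP2A allele.

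NF-kappaB is a family of dimeric transcription factors that inhibitors of the IkappaB family hold in the cytosol. In the classical branch a kinase complex marks the inhibitor for destruction and frees dimers that hold the products of Nfkb1, Rela or Rel. In the alternative branch the kinase NIK, encoded by Map3k14, leads to the trimming of the Nfkb2 product, which pairs with RelB. The freed dimers raise the transcription of their own inhibitors and of several subunits, so these transcripts are often read as a sign of pathway activity. Plasma cells receive such signals through receptors that include BCMA, encoded by Tnfrsf17.

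Bcl3 was the member that set 1 genotype apart from both others: its mean was 7.91 CPM in DH-LMP2A, 20.1 CPM in WT and 19.7 CPM in kFRA. The alternative-branch genes Nfkb2 and Relb were lower in DH-LMP2A than in WT. Levels are CPM, the usual share of a gene in its library's counts, on library sizes scaled by edgeR's TMM factors, and a change was called at a Benjamini-Hochberg adjusted p-value under 0.05 in edgeR's quasi-likelihood test over all 14199 genes. By this test 3 of the 10 members fell and 0 rose in DH-LMP2A against WT, where 7.3% of all genes were called lower and 5.07% higher (12.4% in all). In kFRA against DH-LMP2A 1 member rose and 0 fell, where 1.73% of all genes were called higher and 3.3% lower (5.02% in all). In kFRA against WT 0 members passed by edgeR, where 6.68% of all genes were called higher and 11.1% lower (17.8% in all). There 0 members passed by the DESeq2 Wald test, and 3 had an unadjusted edgeR p under 0.05, as had 35% of all genes.

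**Figure D1:**
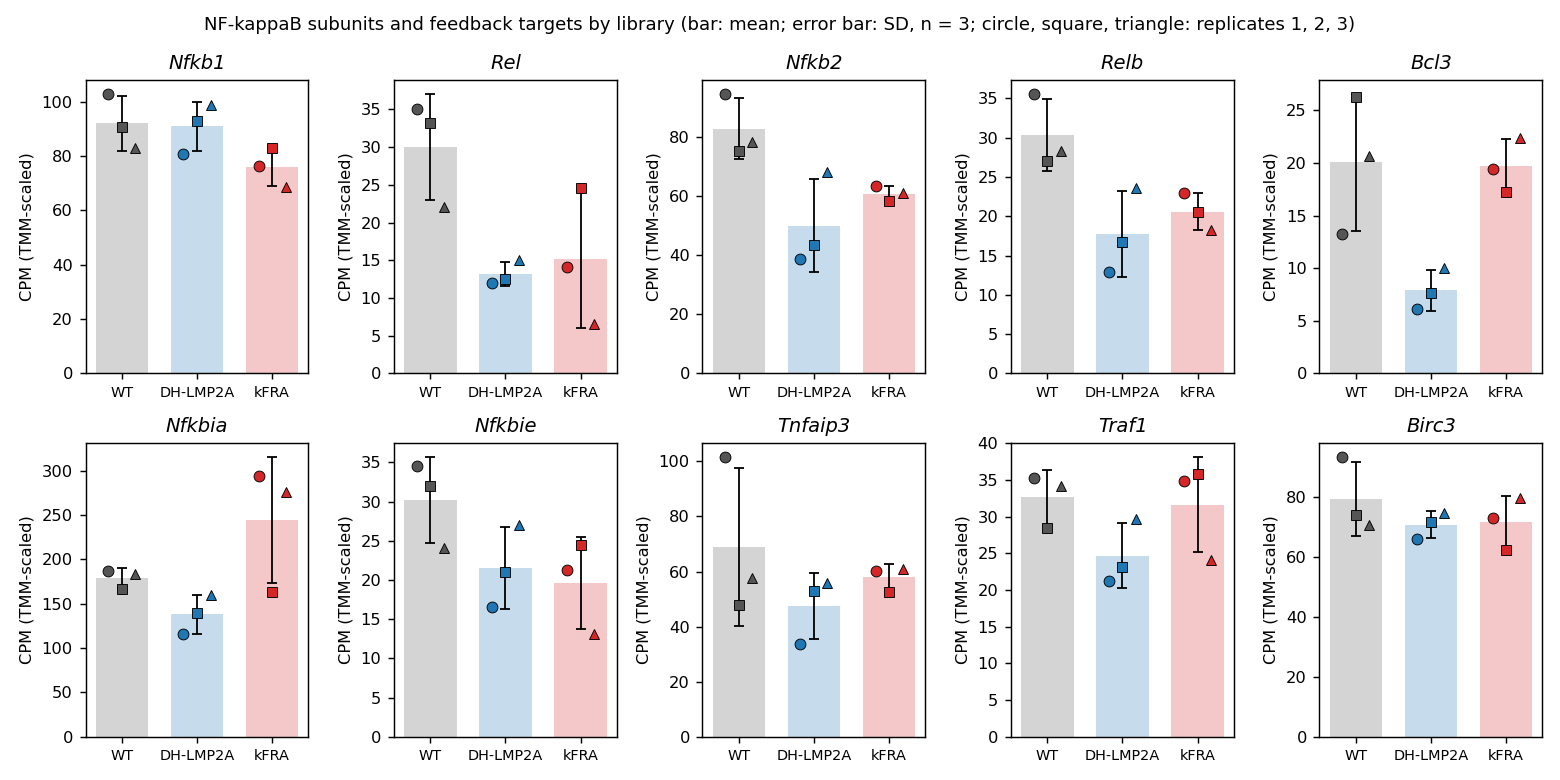
CPM of each of the 10 genes (vertical axes, linear, from 0) in the 3 libraries of each genotype, with the mean as a bar and the SD as an error bar. The 3 DH-LMP2A libraries of Bcl3 (6.09 to 9.98 CPM) lie below all WT and kFRA libraries, and the Nfkbia levels of kFRA replicates 1 and 3 (294 and 276 CPM) lie above all others.

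RefSeq start-site windows, from 250 bases before to 50 bases after a start on GRCm38.p6, were listed for 8 of the 10 members (not for Nfkb1 and Relb). They were searched on both strands for the NF-kappaB consensus decamer. The consensus was present in at least 1 window of 6 of these 8 genes, Bcl3, Nfkb2, Nfkbia, Nfkbie, Rel and Tnfaip3, and in none for Traf1 and Birc3. Over all 27025 genes with a window, 9.55% held it. A match is a string of letters and not evidence of binding. A single window each of 3 members is printed from 5′ to 3′ on the gene's strand, because Bcl3 and Nfkb2 changed and Nfkbia is the inhibitor with the highest level. Capitals mark the consensus matches, which in the Nfkb2 window include 2 that overlap each other. Nfkb2 has 3 windows, of which the first is shown, and each of the others also holds a consensus match.
Bcl3, chr7:19822706-19823005, minus strand: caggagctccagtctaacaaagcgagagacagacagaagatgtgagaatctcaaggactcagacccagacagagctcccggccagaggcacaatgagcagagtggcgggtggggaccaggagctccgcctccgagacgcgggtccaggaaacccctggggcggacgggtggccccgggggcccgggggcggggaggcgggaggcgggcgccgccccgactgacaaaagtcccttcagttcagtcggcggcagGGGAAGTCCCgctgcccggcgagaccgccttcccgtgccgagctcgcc
Nfkb2, chr19:46304487-46304786, plus strand: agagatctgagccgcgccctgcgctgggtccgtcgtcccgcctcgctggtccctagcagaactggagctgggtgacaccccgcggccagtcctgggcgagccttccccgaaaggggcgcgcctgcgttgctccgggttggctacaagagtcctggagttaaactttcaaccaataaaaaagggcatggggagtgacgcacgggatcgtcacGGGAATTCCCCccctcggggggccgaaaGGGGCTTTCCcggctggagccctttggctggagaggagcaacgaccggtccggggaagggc
Nfkbia, chr12:55492598-55492897, minus strand: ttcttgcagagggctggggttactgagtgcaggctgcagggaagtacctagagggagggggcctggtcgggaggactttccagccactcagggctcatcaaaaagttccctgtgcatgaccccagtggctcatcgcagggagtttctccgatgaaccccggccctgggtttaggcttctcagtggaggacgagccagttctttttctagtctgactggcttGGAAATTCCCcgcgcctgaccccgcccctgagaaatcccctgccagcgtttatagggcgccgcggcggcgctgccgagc
The Bcl3 match GGGAAGTCCC reads as a consensus match on both strands and begins 2 bases after the start. The Nfkbia match lies on the opposite strand and begins 29 bases before the start.

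Bcl3 (chromosome 7, 19808462 to 19822770, minus strand) encodes an unusual IkappaB protein that acts in the nucleus on dimers of the Nfkb1 and Nfkb2 products. Its levels in DH-LMP2A replicates 1, 2 and 3 were 6.09, 7.66 and 9.98 CPM. In WT they were 13.3, 26.3 and 20.6 CPM, and in kFRA 19.4, 17.3 and 22.4 CPM. The DH-LMP2A libraries did not overlap those of either other genotype, while the kFRA libraries lay within the WT range. Bcl3 was 2.54-fold lower in DH-LMP2A than in WT (a log2 difference of −1.34 with an SE of 0.267, edgeR adjusted p = 0.0111) and 2.49-fold higher in kFRA than in DH-LMP2A (1.32, SE 0.267, edgeR adjusted p = 0.0232). Between kFRA and WT the log2 difference was −0.03, with a 95% interval of −0.61 to 0.56 (edgeR adjusted p = 0.951). The DH-LMP2A against WT call was lost without DH-LMP2A replicate 1 (edgeR adjusted p = 0.0519) and kept in the other 8 fits that left out a library. The kFRA against DH-LMP2A call was lost in 4 of those 9 fits, with edgeR adjusted p = 0.0882 without DH-LMP2A replicate 1, 0.0771 without DH-LMP2A replicate 2, 0.0789 without kFRA replicate 1 and 0.0789 without kFRA replicate 3. Gm16175, which GENCODE M21 places over an exon of Bcl3 on the opposite strand, had 0 counts in every library.

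Nfkb2 (chromosome 19, 46304737 to 46312090, plus strand), the precursor gene of the alternative branch, was at 94.7, 75.4 and 78.4 CPM in the WT libraries. In DH-LMP2A it was at 38.6, 43.5 and 68.1 CPM, and in kFRA at 63.3, 58.4 and 60.9 CPM. All WT libraries lay above all libraries of the other genotypes. Nfkb2 was 1.65-fold lower in DH-LMP2A than in WT (log2 fold change −0.73, SE 0.205, edgeR adjusted p = 0.0482). In kFRA against WT the value was −0.44 (SE 0.204, edgeR adjusted p = 0.154), which did not pass. Exons of Psd overlap Nfkb2 on the opposite strand, and Psd was at 0.573 to 1.06 CPM in the 9 libraries.

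Relb (chromosome 7, 19606217 to 19629438, minus strand), whose product pairs with the trimmed Nfkb2 product, was at 35.6, 27.1 and 28.3 CPM in WT. It was at 12.9, 16.7 and 23.6 CPM in DH-LMP2A and at 22.9, 20.6 and 18.3 CPM in kFRA. As for Nfkb2, no DH-LMP2A or kFRA library reached the lowest WT library. Relb was 1.71-fold lower in DH-LMP2A than in WT (a log2 difference of −0.77, SE 0.219, edgeR adjusted p = 0.0488). Its value for kFRA against WT was −0.56 (SE 0.218, edgeR adjusted p = 0.104). The calls of Nfkb2 and Relb were near the threshold: each was kept without DH-LMP2A replicate 3 and without kFRA replicate 2 and lost without any of the other 7 libraries, where the edgeR adjusted p was 0.0609 to 0.150 for Nfkb2 and 0.0551 to 0.149 for Relb. With library size alone as the scaling both calls were lost (−0.41 and −0.46, edgeR adjusted p = 0.215 and 0.218). That scaling moved the median of all genes to 0.33, relative to which Nfkb2 was at −0.74 and Relb at −0.79. With the replicate number as a block Relb was lost (−0.78, edgeR adjusted p = 0.0639). With only the 6 libraries compared both were lost (edgeR adjusted p = 0.076 for Nfkb2 and 0.0699 for Relb), and Relb also at a mean of at least 5 CPM (edgeR adjusted p = 0.0504). Of 10 other settings, the covariates given further on included, Nfkb2 passed in 7 and Relb in 4.

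Rel (chromosome 11, 23736847 to 23770970, minus strand) encodes c-Rel, a classical-branch subunit abundant in lymphocytes. It was at 35.0, 33.2 and 22.04 CPM in WT, at 11.97, 12.6 and 15.01 CPM in DH-LMP2A and at 14.2, 24.6 and 6.59 CPM in kFRA. The WT and DH-LMP2A libraries did not overlap, but kFRA replicate 2 lay inside the WT range. Against WT the log2 difference was −1.19 in DH-LMP2A (SE 0.391, edgeR adjusted p = 0.0822) and −0.99 in kFRA (SE 0.39, edgeR adjusted p = 0.107), and neither passed. Without kFRA replicate 2 both passed (−1.19, edgeR adjusted p = 0.0217, and −1.47, edgeR adjusted p = 0.01), and without kFRA replicate 3 the first did (edgeR adjusted p = 0.0169). The value in DH-LMP2A against WT also passed in 3 of 10 other settings, with no filter on low counts (edgeR adjusted p = 0.0467), with only the 6 libraries compared (edgeR adjusted p = 0.0104) and with the DESeq2 Wald test (DESeq2 adjusted p = 0.0184).

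Nfkb1 (chromosome 3, 135584655 to 135691547, minus strand) is the precursor gene of the classical branch. It was at 103, 90.6 and 82.8 CPM in WT, at 80.9, 93.0 and 98.7 CPM in DH-LMP2A and at 76.5, 82.8 and 68.7 CPM in kFRA. The WT and DH-LMP2A ranges overlapped, with a log2 fold change of −0.02 and a 95% interval of −0.32 to 0.29. The kFRA libraries lay just below the WT libraries, with a log2 difference of −0.28 ± 0.136 (SE) and an edgeR adjusted p = 0.177.

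Nfkbia (chromosome 12, 55489411 to 55492647, minus strand) encodes IkappaBalpha, the inhibitor that NF-kappaB itself induces most directly. Its levels were 294, 163 and 276 CPM in kFRA, 116, 140 and 159 CPM in DH-LMP2A and 187, 166 and 184 CPM in WT. The kFRA libraries lay above the DH-LMP2A libraries, by 3.45 CPM for the nearest pair, and kFRA replicate 2 lay below the WT range. Nfkbia was 1.77-fold higher in kFRA than in DH-LMP2A, which did not pass (log2 fold change 0.82, SE 0.223, edgeR adjusted p = 0.0728). For kFRA against WT it was 0.45 (SE 0.222, edgeR adjusted p = 0.182). Without kFRA replicate 2 both passed (1.11, edgeR adjusted p = 0.00342, and 0.73, edgeR adjusted p = 0.00858), and with the DESeq2 Wald test the first did (0.86, DESeq2 adjusted p = 0.0086).

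Nfkbie (chromosome 17, 45555716 to 45563169, plus strand), which encodes the inhibitor IkappaBepsilon, was at 34.5, 32.0 and 24.1 CPM in WT, at 16.5, 21.0 and 27.0 CPM in DH-LMP2A and at 21.3, 24.5 and 13.1 CPM in kFRA. The ranges of all 3 genotypes overlapped, and the lowest adjusted p was that of kFRA against WT (log2 fold change −0.62, SE 0.26, edgeR adjusted p = 0.123).

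The remaining feedback targets passed in no comparison. Tnfaip3 (chromosome 10, 19000910 to 19015657), which encodes the ubiquitin-editing brake A20, ranged from 33.6 CPM in DH-LMP2A replicate 1 to 102 CPM in WT replicate 1. The other 7 libraries lay between 47.7 and 61.1 CPM, so that its WT mean of 69.0 ± 28.6 CPM (SD, n = 3) rested on replicate 1. Traf1 (chromosome 2, 34941750 to 34961772), an adaptor of tumour necrosis factor receptors, was at 32.6 ± 3.70 CPM in WT, 24.7 ± 4.44 CPM in DH-LMP2A and 31.6 ± 6.50 CPM in kFRA (SD, n = 3 each). Birc3 (chromosome 9, 7848699 to 7873186), a ubiquitin ligase that takes part in the destruction of NIK, was at 79.4 ± 12.2, 70.8 ± 4.47 and 71.7 ± 8.79 CPM in the same order (SD, n = 3 each). Between kFRA and DH-LMP2A it differed by 0.02 on the log2 scale, with a 95% interval of −0.31 to 0.35.

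**Figure D2:**
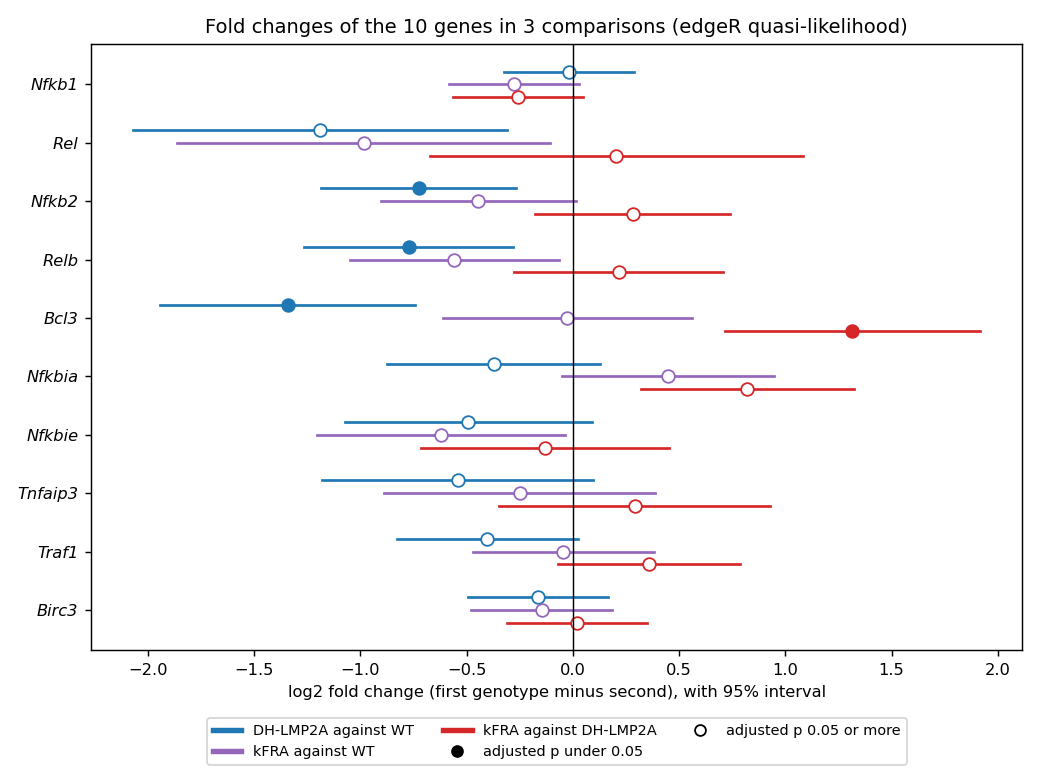
Log2 fold changes of the 10 genes (horizontal axis, first genotype minus second) with their 95% intervals, in 3 comparisons marked by colour. Filled points, which passed the test, are Bcl3, Nfkb2 and Relb in DH-LMP2A against WT and Bcl3 in kFRA against DH-LMP2A.

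Over the 10 members, the median log2 fold change of DH-LMP2A against WT was −0.52, against −0.01 for all genes. All 10 values were below 0, but with library size alone Nfkb1 (0.31) and Birc3 (0.16) were above 0. That scaling moved the median of all genes to 0.33, relative to which they were −0.03 and −0.17. Libraries did not overlap for 5 members, all lower in DH-LMP2A, while 19.1% of all genes were lower and 17.5% higher without overlap (36.6% in all). In kFRA against DH-LMP2A the members' median was 0.25, against −0.005 for all genes. There 2 members did not overlap, both higher in kFRA, while 11.6% of all genes were higher and 13.9% lower without overlap (25.6% in all). For kFRA against WT the median was −0.26, against −0.04, and 3 members did not overlap, all lower in kFRA, while 20.2% of all genes were lower and 14.2% higher without overlap (34.3% in all). The comparisons share libraries, so their values are not independent. Leaving out a library moved the count of members called between 0 (without DH-LMP2A replicate 1) and 4 (without kFRA replicate 2) in DH-LMP2A against WT. It moved from 0 to 2 in each of the other comparisons, where 2 was reached without kFRA replicate 2. The count over all genes was also highest without kFRA replicate 2: 2364 in DH-LMP2A against WT, 3299 in kFRA against DH-LMP2A and 5632 in kFRA against WT.

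Per kilobase of gene length, Nfkbia was the most abundant member in each genotype, at 114 ± 7.14 CPM per kb in WT, 87.7 ± 13.8 CPM per kb in DH-LMP2A and 155 ± 45.1 CPM per kb in kFRA (SD, n = 3 each). Nfkb2 came next, at 25.2 ± 3.15, 15.2 ± 4.81 and 18.5 ± 0.737 CPM per kb, above Birc3 in all WT and kFRA libraries but overlapping it in DH-LMP2A. Rel and Traf1 were the lowest in each genotype. Bcl3 stood sixth at 8.07 ± 2.62 CPM per kb in WT and sixth at 7.93 ± 1.04 in kFRA, but eighth at 3.18 ± 0.786 in DH-LMP2A. In DH-LMP2A each of ranks 4 to 8 overlapped the next. In kFRA the neighbours that overlapped were Nfkbie with Tnfaip3, Tnfaip3 with Bcl3, Nfkb1 with Relb and Traf1 with Rel, and the other 5 pairs of neighbours did not.

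The libraries of DH-LMP2A differed in a like way for every member. Replicate 3 held the highest of the 3 values and replicate 1 the lowest for all 10 members, while over all genes tested replicate 3 was highest in 37.7% and replicate 1 lowest in 32.7%. WT replicate 1 was the highest WT library for 9 of 10 members, against 36.7% of all genes. In kFRA, replicate 2 was highest for 4 members (Nfkb1, Rel, Nfkbie and Traf1) and lowest for 5 (Nfkb2, Nfkbia, Tnfaip3, Bcl3 and Birc3), against 43.6% and 37.9% of all genes.

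Markers of some other spleen cells moved with the genotypes. Of 7 endothelial and stromal markers tested 0 passed in any comparison. Of 8 T cell markers 0 passed in kFRA against WT, 1 fell in kFRA against DH-LMP2A and 1 rose in DH-LMP2A against WT. Of 7 dendritic cell markers tested, 1 rose and 1 fell in kFRA against WT. In kFRA against DH-LMP2A 1 of these rose, and in DH-LMP2A against WT 2 fell. The summed level of 8 B cell markers was 342 to 658 CPM in WT, 427 to 645 CPM in DH-LMP2A and 254 to 295 CPM in kFRA, with no marker at 0 in any library. Between kFRA and WT 5 of the 8 fell and 0 rose, among them Cd22 and Fcer2a. In kFRA against DH-LMP2A 2 fell and 0 rose. In DH-LMP2A against WT 2 rose and 1 fell, with 3 log2 fold changes above 0 and 5 below (−2.78 to 1.19). There Cr2 was at a mean of 60.1 CPM against 27.3 CPM in WT, and Cd22 at 13.8 against 94.6 CPM. The mean log2 (CPM + 1) of the 8 markers was 5.91 in DH-LMP2A replicate 3 against 4.87 and 4.84 in replicates 1 and 2. The kFRA libraries (4.05 to 4.43) overlapped neither those of WT (5.21 to 6.26) nor those of DH-LMP2A. In both comparisons of kFRA this score and the genotype thus cannot be cleanly told apart. In DH-LMP2A against WT it averages markers that moved in opposite directions. A call lost with it therefore does not show what part B cells had in a change. With this score as a covariate edgeR called 0 members in each comparison. The Bcl3 values were then −1.17 in DH-LMP2A against WT (edgeR adjusted p = 0.0522) and 1.62 in kFRA against DH-LMP2A (edgeR adjusted p = 0.104), and those of Nfkb2 and Relb in DH-LMP2A against WT were −0.54 and −0.60 (edgeR adjusted p = 0.165 and 0.181). Summed erythroid markers were at 49.7 to 333 CPM in WT, 2426 to 12852 CPM in DH-LMP2A and 1094 to 2584 CPM in kFRA. The sum was mostly Hbb-bs and Hba-a1, and the 12852 CPM were those of DH-LMP2A replicate 3, against 2426 and 2530 CPM in replicates 1 and 2. Against WT 4 of the 8 erythroid markers rose and 0 fell in DH-LMP2A, and likewise in kFRA. Epor had a higher mean in WT (10.2 CPM) than in DH-LMP2A (6.10 CPM) and kFRA (8.52 CPM). Summed macrophage and monocyte markers were at 2178 to 3918 CPM in WT, 667 to 1885 CPM in DH-LMP2A and 1245 to 1941 CPM in kFRA, and granulocyte markers at 435 to 1185, 33.4 to 322 and 21.4 to 39.0 CPM. At most 1 granulocyte marker was at 0 in a library. The granulocyte sum was carried by S100a8, S100a9 and Csf3r: in DH-LMP2A against WT 4 of the 7 markers tested had log2 fold changes above 0, with a list median of 0.34, and 1 rose (Mpo) and 0 fell. Plasma cell markers were the most abundant list in every library. Their sum moved with the genotype too, at 34257 to 47153 CPM in DH-LMP2A, 20584 to 32729 CPM in kFRA and 18984 to 24260 CPM in WT. Most of this sum was Jchain, with means of 30965.5 CPM in DH-LMP2A, 21118 CPM in kFRA and 17825 CPM in WT. In DH-LMP2A against WT 2 of the 8 markers rose (Mzb1 and Prdm1) and 1 fell (Tnfrsf17), and Jchain did not pass. The part in the results of the markers other than those of B cells was not tested. In such bulk samples fewer cells of a type and less RNA per cell cannot be told apart. Xist, a transcript of female cells, was at 495 to 924 CPM in 5 libraries and at 0.459 to 4.48 CPM in DH-LMP2A replicate 3, kFRA replicates 1 and 3 and WT replicate 2. With its log2 (CPM + 1) as a covariate, chosen after seeing the data, Bcl3 and Nfkb2 stayed past the threshold and Relb did not (edgeR adjusted p = 0.0502).

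Beyond the 10 members, the upstream list of kinases and adaptors held lower levels of Map3k14 and Traf3. Map3k14, the gene of NIK, was at 22.3, 26.9 and 25.3 CPM in WT, 12.4, 15.3 and 17.0 CPM in DH-LMP2A and 14.6, 14.1 and 12.4 CPM in kFRA. No DH-LMP2A or kFRA library reached the WT range, and Map3k14 fell in both genotypes, by 0.74 (SE 0.153, edgeR adjusted p = 0.0132) and 0.86 (SE 0.154, edgeR adjusted p = 0.00601) on the log2 scale. The call in DH-LMP2A was lost without DH-LMP2A replicate 1 (edgeR adjusted p = 0.0545) and without WT replicate 2 (edgeR adjusted p = 0.0589). Traf3, an adaptor that delivers NIK for destruction, was at 46.0 to 50.2 CPM in WT, 27.2 to 34.1 CPM in DH-LMP2A and 22.6 to 34.1 CPM in kFRA, and fell too, by 0.62 (edgeR adjusted p = 0.0437) and 0.66 (edgeR adjusted p = 0.0269). Of the 9 fits that left out a library, 2 kept the Traf3 call in DH-LMP2A and 5 that in kFRA. Of 26 genes of this list, 3 were lower and 0 higher in DH-LMP2A than in WT, beside 7.3% and 5.07% of all genes. The third was Myd88, the adaptor of Toll-like receptors (log2 fold change −0.81, SE 0.148, edgeR adjusted p = 0.00776). Without DH-LMP2A replicate 1 or without WT replicate 2 that count was 1 lower, and with library size alone 2 higher and 0 lower. In kFRA against WT 2 were lower and 2 higher, beside 11.1% and 6.68% of all genes. The 2 higher were Traf5 (0.96, SE 0.244, edgeR adjusted p = 0.0263) and Sharpin (0.48, SE 0.142, edgeR adjusted p = 0.0449). Without kFRA replicate 2 these counts were 4 lower and 6 higher, where 5632 of all 14518 genes tested were called in either direction. Without kFRA replicate 1 or 3 or any WT library 0 were higher. Of the 9 fits that left out a library, 4 kept the Traf5 call and 2 that of Sharpin. In kFRA against DH-LMP2A 0 passed by edgeR or DESeq2, and 3 had an unadjusted edgeR p under 0.05, beside 22.4% of all genes. Without kFRA replicate 2 the counts there were 6 higher and 2 lower, where 3299 of all 14518 genes tested were called in either direction. The list medians against WT were −0.01 in DH-LMP2A and −0.03 in kFRA. With the B cell score as a covariate Map3k14 was at −0.66 in DH-LMP2A and −0.64 in kFRA against WT and Traf3 at −0.55 and −0.49, and neither passed (edgeR adjusted p between 0.0693 and 0.663).

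Several receptors and ligands that feed the pathway fell against WT. Of 21 tested, 6 fell in DH-LMP2A and 10 in kFRA and 0 rose, with medians of −0.99 and −1.07. Of all genes 7.3% and 11.1% were called lower against WT, and 5.07% and 6.68% higher. Tnfrsf17 (BCMA), which is also one of the plasma cell markers, was at 49.3 ± 9.27 CPM in WT, 22.01 ± 6.71 CPM in DH-LMP2A and 15.3 ± 3.52 CPM in kFRA (SD, n = 3 each). It fell by 1.16 (edgeR adjusted p = 0.0159) and 1.69 (edgeR adjusted p = 0.00253) on the log2 scale. The call in DH-LMP2A was lost without DH-LMP2A replicate 1 (edgeR adjusted p = 0.0647), without WT replicate 3 (edgeR adjusted p = 0.0517) and with the B cell score (−1.13, edgeR adjusted p = 0.0536), and that in kFRA with the B cell score (−1.57, edgeR adjusted p = 0.18). The Toll-like receptor genes Tlr1 and Tlr2 and the cytokine gene Tnf fell in both comparisons, Tlr1 by 1.74 and 2.16. Tnf had few counts: 31, 46 and 26 in WT, 10, 14 and 8 in DH-LMP2A and 3, 8 and 4 in kFRA. Macrophages express Tlr1 and Tlr2 too. Of the 8 macrophage and monocyte markers, 2 fell in DH-LMP2A and 3 in kFRA against WT and 0 rose. In DH-LMP2A 7 of their log2 fold changes were below 0 and 1 above. What part these markers' cells had in the lower receptors was not tested. The other receptors for the ligands of BCMA did not pass: Tnfrsf13b was at 171, 181 and 174 CPM in WT, DH-LMP2A and kFRA, and Tnfrsf13c at 56.6, 57.7 and 38.3 CPM. In kFRA against DH-LMP2A 1 gene of the list passed, Tlr6, which was lower (−0.83, SE 0.199, edgeR adjusted p = 0.0468) and was kept in 2 of 9 fits that left out a library. The counts moved with the settings: for DH-LMP2A 3 genes fell without DH-LMP2A replicate 1 or WT replicate 2, 7 without kFRA replicate 2, 2 with library size alone and 1 with the B cell score, where the list median was −1.07. For kFRA 5 fell without kFRA replicate 1, 14 without DH-LMP2A replicate 3, 7 with library size alone and 0 with the B cell score, where the list median was −1.20.

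Among 22 tested genes described as targets, 0 passed in kFRA against DH-LMP2A by edgeR or by the DESeq2 Wald test. There 2 had an unadjusted edgeR p under 0.05, beside 22.4% of all genes. In DH-LMP2A against WT 3 fell and 1 rose, beside 7.3% and 5.07% of all genes. In kFRA against WT 7 fell and 1 rose, beside 11.1% and 6.68% of all genes. The list medians against WT were −0.99 and −0.95. The gene that rose in both was Ebi3, a cytokine subunit gene, at 12.5 ± 1.22 CPM in WT, 36.2 ± 4.67 CPM in DH-LMP2A and 36.7 ± 2.96 CPM in kFRA (SD, n = 3 each; edgeR adjusted p = 0.000148 and 8.6e-05). It passed under every setting run. Fas, a death receptor gene, fell in both (−2.09 and −1.99 on the log2 scale, edgeR adjusted p = 0.00345 and 0.00399), and Icam1, an adhesion molecule gene, did too (−1.36 and −0.98, edgeR adjusted p = 0.00934 and 0.0307). Icam1 in kFRA was lost in 5 of 9 fits that left out a library. The count of lower targets in DH-LMP2A was 2 without DH-LMP2A replicate 1 and 8 without kFRA replicate 2. In kFRA it was 2 without kFRA replicate 1 and 11 without kFRA replicate 2 or DH-LMP2A replicate 3. Without kFRA replicate 2 the genes called against WT in either direction were 2364 in DH-LMP2A and 5632 in kFRA, of all 14518 tested. With library size alone 1 target was lower in DH-LMP2A and 3 in kFRA, and with the B cell score 2 and 0, at list medians of −1.13 and −1.08. Fas and Icam1 in kFRA were then at −1.69 and −1.28 (edgeR adjusted p = 0.288 and 0.359). In GENCODE M21 Map3k14 and Traf5 overlap exons of another gene on their own strand, and Myd88, Traf5, Ebi3, Icam1 and Nkiras1 on the opposite strand, so their counts may hold reads of that gene.

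Some other brakes and subunits changed. Of 11 brakes, Tnip1 (−0.61, edgeR adjusted p = 0.00786) and Zc3h12a (−1.02, edgeR adjusted p = 0.0151) fell in DH-LMP2A against WT and 0 rose, beside 7.3% and 5.07% of all genes. In either comparison of kFRA 0 brakes passed by edgeR, against 1 each by the DESeq2 Wald test. With library size alone the Tnip1 and Zc3h12a calls were lost (−0.27 and −0.68, edgeR adjusted p = 0.319 and 0.0868) and 1 other brake was higher. Without WT replicate 2 that of Zc3h12a was lost (edgeR adjusted p = 0.0613). Of 8 other subunits and inhibitors, Nfkbid fell (−0.93, edgeR adjusted p = 0.00859) and Nkiras1 rose (1.01, edgeR adjusted p = 0.0337) in kFRA against WT, beside 11.1% and 6.68% of all genes. Mean Nkiras1 levels were 12.3 CPM in kFRA, 6.09 CPM in WT and 5.65 CPM in DH-LMP2A. In kFRA against DH-LMP2A 0 of the 8 passed by edgeR as reported. There 1 was higher with DESeq2 size factors, with no filter on low counts or with the DESeq2 Wald test. The Nkiras1 call was lost in 5 of 9 fits that left out a library (without kFRA replicate 1 or 3 or any WT library, edgeR adjusted p = 0.0678 to 0.123), with only the 6 libraries compared (0.055) and with the Xist covariate (0.0647). With the B cell score as a covariate Nkiras1 (0.42, edgeR adjusted p = 0.829) and Nfkbid (−0.43, edgeR adjusted p = 0.685) were lost in kFRA against WT. Tnip1 (−0.55, edgeR adjusted p = 0.0502) and Zc3h12a (−0.84, edgeR adjusted p = 0.0843) were then lost in DH-LMP2A against WT. Rela, the main partner of the Nfkb1 product, was at 59.7, 56.3 and 63.6 CPM in WT, DH-LMP2A and kFRA and passed in none.

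**Figure D3:**
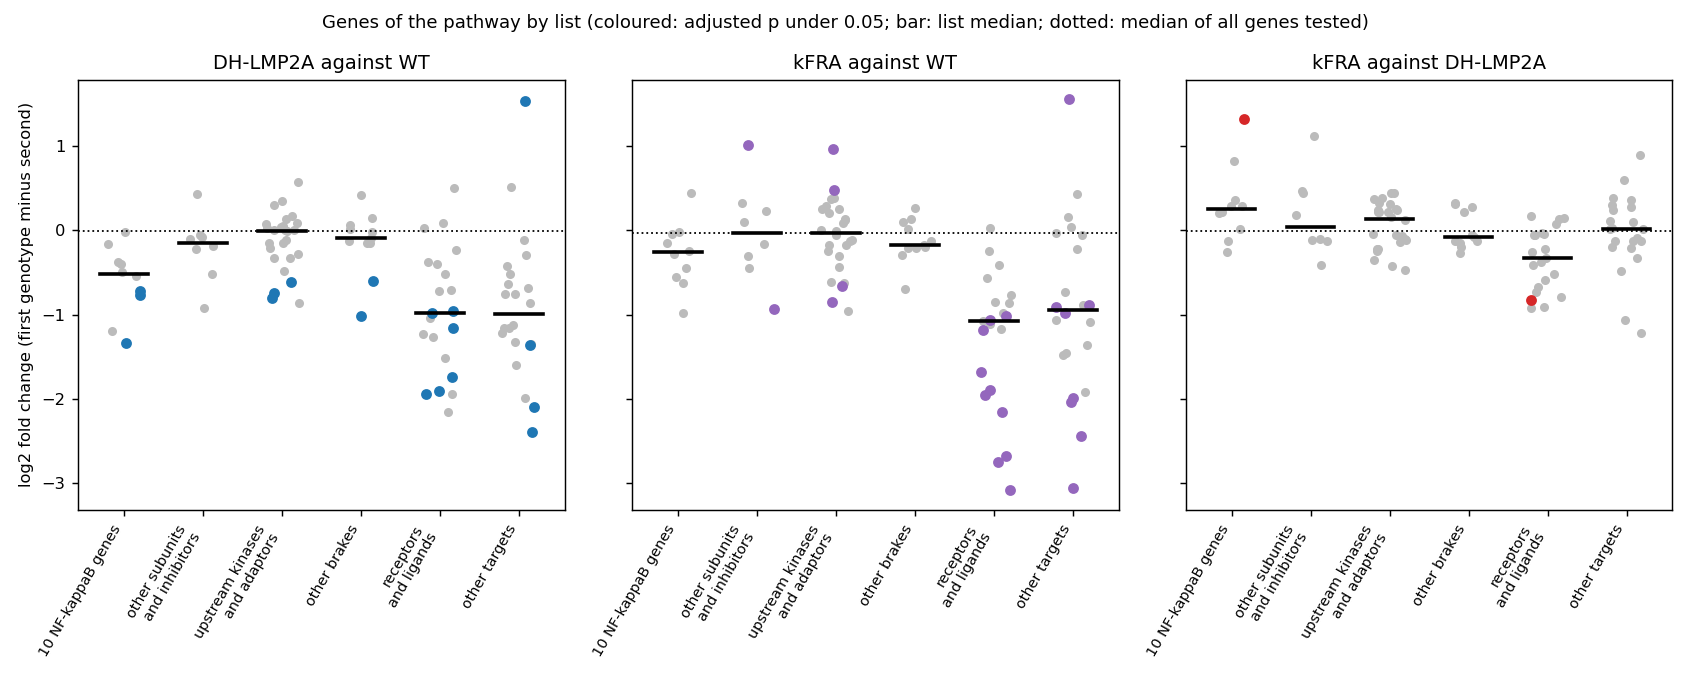
Log2 fold changes (vertical axis, first genotype minus second) of the 10 members and of 5 lists of other pathway genes in 3 comparisons, with coloured points for genes that passed, black bars for list medians and a dotted line for the median of all genes tested. Receptors and ligands have medians of −0.99 and −1.07 against WT and −0.33 in kFRA against DH-LMP2A.

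**Figure D4:**
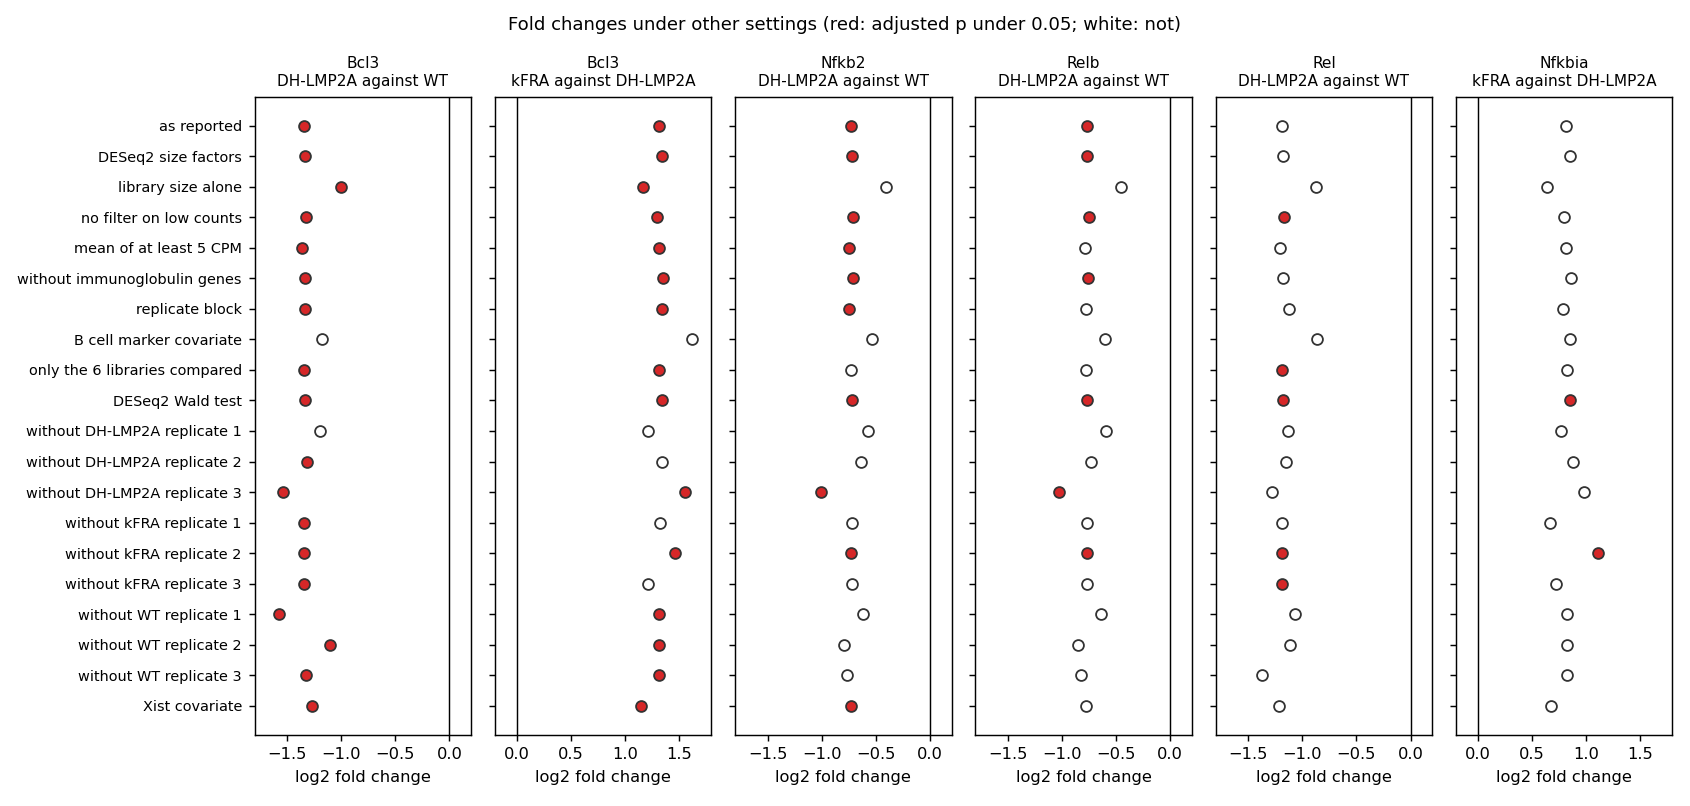
Log2 fold changes (horizontal axes) of 6 member results as reported and under 19 other settings, red where the adjusted p was under 0.05. Bcl3 keeps its direction in all settings, with values between −1.57 and −0.9996 in DH-LMP2A against WT and between 1.15 and 1.62 in kFRA against DH-LMP2A.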

How the data were processed

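RNA of 9 libraries was prepared with a stranded kit for polyadenylated RNA, per the labels' protocols. The authors deposited 1 table of read counts that were not normalized, laid out as featureCounts writes it, per the file headers. STAR 2.4.0a, featureCounts, Subread 1.5.0-p3, DESeq2 and the builds mm10 and GRCm38 are named in the submitters' processing notes. The strand setting and the treatment of reads with several hits are not given in the sources used here. The table's gene spans equal those of GENCODE M21 for 7 of the 10 members, and its coordinates are read as GRCm38. The table's gene length, another deposited column, is the merged exon length in bases.

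Totals were 15449026 to 21558128 counts per library, so that 3 counts were worth 0.127 to 0.205 CPM. Counts were filtered with filterByExpr (14199 genes left), scaled by TMM and tested in 1 quasi-likelihood fit over all 9 libraries with edgeR 4.0.16 under R 4.3.3, 2-sided, with p-values adjusted over all genes. SEs are the log2 fold change divided by the square root of F. Alternatives were other scalings and filters, a replicate block, covariates, DESeq2 1.42.0 and leaving out each library. The model was first run on counts simulated with its own estimates of spread, which cannot show how it behaves on the real libraries. No replicate pair agreed within sampling noise (chi-square per degree of freedom 18.3 to 174). Genes named are the 10 members and, per list and comparison, up to 4 genes past the threshold with the smallest p, while Rela, Tnfrsf13b, Tnfrsf13c and the markers were named after their values were seen. The members and lists were chosen with earlier results of these data known.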

Additional observations from a re-analysis of the deposited data

How the results depend on the processing

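The cause of the changes below was not tested. Counts of members past the threshold in kFRA against DH-LMP2A (1 as reported), kFRA against WT (0) and DH-LMP2A against WT (3) ranged over 0 to 2, 0 to 2 and 0 to 4 when a library was left out. Fitted with the B cell score, edgeR called 0 in each, as it did at an adjusted p under 0.01, with library size alone 1, 1 (Nfkbia) and 1 (Bcl3), and with the DESeq2 Wald test 2, 0 and 4. Counts over all genes (713, 2523 and 1756) ranged from 352 to 3299, 1271 to 5632 and 932 to 2364 without a library, the highest each time without kFRA replicate 2. They were 233, 356 and 1021 with the B cell score, 306, 975 and 765 at an adjusted p under 0.01, 1405 in kFRA against DH-LMP2A with DESeq2 and 1094 in DH-LMP2A against WT at a mean of at least 5 CPM. Library size alone gave 72% and 79.9% higher among the genes called in kFRA and DH-LMP2A against WT, against 37.6% and 41% with TMM.

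Log2 fold changes that changed sign did not pass on either side. In kFRA against DH-LMP2A these were Nfkbie with the B cell score (0.32) and Birc3 with library size alone (−0.13), no filter (−0.0045) and the Xist covariate, chosen after seeing the data (−0.0097). In kFRA against WT the B cell score gave Nfkb1 0.0008, Nfkb2 0.14, Nfkbie 0.099, Tnfaip3 0.088, Traf1 0.15, Bcl3 0.45 and Birc3 0.025. Library size alone gave Traf1 0.19, Bcl3 0.17 and Birc3 0.027, leaving out immunoglobulin genes Traf1 0.0031 and Bcl3 0.027, and the 6 libraries alone Traf1 0.0007 and Bcl3 0.025. DESeq2 size factors and the DESeq2 Wald test gave Bcl3 0.013 each. In DH-LMP2A against WT, library size alone gave Nfkb1 0.31 and Birc3 0.16, and the B cell score Nfkb1 0.089. Without a library, signs changed for Rel (−0.29 to 0.56), Nfkbie (−0.26 to 0.10) and Birc3 (−0.064 to 0.17) in kFRA against DH-LMP2A, for Tnfaip3 (−0.46 to 0.14), Traf1 (−0.14 to 0.12), Bcl3 (−0.25 to 0.22) and Birc3 (−0.23 to 0.012) in kFRA against WT, and for Nfkb1 (−0.091 to 0.0665) in DH-LMP2A against WT.

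The replicate numbers name different mice, and 4 of 9 same-numbered pairs had deviations correlated above 0.1 (−0.211 to 0.196), with the own number matching best in 7 of 18 comparisons. With the replicate number as a block 1, 0 and 2 members and 685, 2930 and 2067 genes passed, and the sign of Bcl3 in kFRA against WT changed (0.0105).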

Other observations

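By the rule for likeness, the 5 genes outside the members whose log2 CPM correlated best, over the 9 libraries, with the mean of the members' scaled levels were Dlgap4 (Pearson r = 0.934), Lpxn (0.927), Rasal1 (0.897), Pik3cd (0.887) and Cyp4v3 (0.885). They were picked as the highest of 9623 candidates, so these values carry no test. Pik3cd, a catalytic subunit of phosphoinositide kinase in leukocytes, was at 184 ± 23.7 CPM in WT, 144 ± 22.8 CPM in DH-LMP2A and 157 ± 13.5 CPM in kFRA (SD, n = 3 each). Lpxn, an adaptor of focal adhesions, was at 22.6 ± 2.81, 11.9 ± 3.65 and 13.7 ± 2.20 CPM in the same order. The members' mean scaled level was 1.226, 0.443 and 0.335 SD units in the WT libraries, −1.306, −0.602 and 0.106 in DH-LMP2A and 0.205, −0.043 and −0.362 in kFRA.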
